A study of Mus musculus with 2 samples.

Results

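Early amacrine cells, the inhibitory interneurons being born in the inner retina, were examined in single-cell RNA-seq libraries of mouse eye cups at e15.5. A cell was counted as a member when it carried unique molecular identifiers (UMIs) of at least 2 of the 5 genes Tfap2b, Tfap2a, Ptf1a, Gad2 and Slc32a1, no UMI of Lhx1, Pou4f2, Crx, Krt14 or Krt5, and fewer than 5 UMIs of Col1a2 plus Col3a1. The rule took 917 of the 20430 cells that passed the filters, 347 of 9722 in the control and 570 of 10708 in the mutant. The control was Myrf fl/fl, with floxed alleles of the membrane-bound transcription factor Myrf and no driver named in its label. In the mutant (Rx>cre Myrf fl/fl), Cre from the Rx promoter acts in the early eye field and so in retina and retinal pigment epithelium alike. Each genotype was 1 library made from 3 pooled eye cup samples, so every value set between genotypes compares 2 libraries and has no replicate check. Intervals between genotypes are 95% and cover counting error only, and no test was made there.

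Amacrine cells leave the cell cycle during the embryonic and early postnatal weeks, after or alongside ganglion, cone and horizontal cells. Foxn4 acts in progenitors upstream of Ptf1a, a basic helix-loop-helix factor that is switched on briefly in newborn amacrine and horizontal cells and is needed for both. The AP-2 factors Tfap2a and Tfap2b and the repressor Prdm13 follow, while Onecut1, Prox1 and Lhx1 take part in the horizontal cell branch. Most amacrine cells later release GABA or glycine: Gad2 makes GABA from glutamate, Slc32a1 loads both transmitters into vesicles, and Slc6a9 takes glycine back up.

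The control and mutant libraries held 13017 and 13880 barcodes with median depths of 9339 and 8702 UMIs. Amacrine cells had nearly the same depth in both, with medians of 8079 and 8069 UMIs, 2922 and 2897.5 genes and mitochondrial shares of 4.86% and 4.87%. The 2 libraries shared 35 barcodes among the cells kept and 0 among the amacrine cells. Y-linked UMIs were found in 0 of 347 control amacrine cells (a count of 0 leaves room for 0.865%) and in 319 of 570 mutant amacrine cells (56.0%), so the sex of the pooled samples cannot be told apart from the genotype wherever a value moves with it. Myrf itself had 2 UMIs in 1 control and 2 UMIs in 2 mutant amacrine cells, shares of 0.288% and 0.351%. Cells with at least 50% of their UMIs from haemoglobin genes, which should lack it, gave 0.201% and 0.443% at median depths of 17284.5 and 17114 UMIs, so Myrf was at background in these cells and its counts check neither label.

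The rule genes chose the cells, and their levels are given as description only. Ptf1a (chr2:19445663-19447501, plus strand, GRCm38) stood at 663 CPM (UMIs per 1e6 UMIs of the cells summed) in control and 486 CPM in mutant amacrine cells, and at least 1 UMI in 85.6% and 76.8% of them. Tfap2b (chr1:19208914-19238576) stood at 564 and 559 CPM, in 89.6% and 86.7% of the cells. Gad2 (chr2:22622205-22693874) was at 132 and 159.6 CPM and Slc32a1 (chr2:158610767-158615748) at 54.6 and 56.3 CPM. Tfap2a (chr13:40715302-40738376, minus strand) was at 103 and 135 CPM, in 41.8% and 44.7% of the cells. In the haemoglobin-rich cells no rule gene was seen in more than 2.82%. Tfap2b with Ptf1a was the commonest pair, without any other rule gene in 67 control and 93 mutant cells, and all 5 genes were found in 47 and 58. Exactly 2 rule genes, the fewest the rule allows, were found in 133 and 224 cells, while 985 and 1502 cells just outside it carried a single one and met every other condition. At the collagen limit, 3 and 8 members had 4 UMIs and 2 and 1 cells were just excluded with 5.

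**Figure D1:**
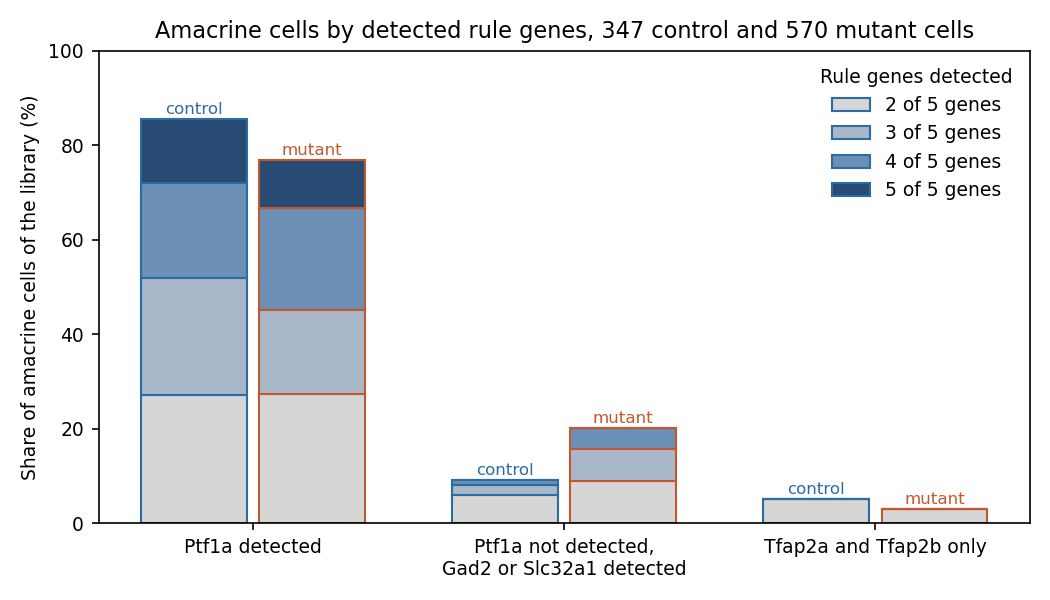
Bars give the share of each library's amacrine cells (vertical axis, %) by the rule genes detected, with control outlined in blue and mutant in orange and shades for the number of rule genes per cell. Ptf1a was detected in 85.6% of control and 76.8% of mutant cells, and the middle pair of bars stands at 9.22% and 20.2%.

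The start regions of the rule genes were read from RefSeq (GRCm38.p6), 250 bases before to 50 after each annotated start, and searched for the AP-2 motif GCCNNNGGC and the E-box CAGCTG, a form of the site bound by Ptf1a-class factors. Both motifs read the same on both strands, and the 2 do not overlap in the windows shown. Among all 32851 promoters, 16.6% held the AP-2 motif and 16.3% this E-box. Of the 6 promoters of the 5 rule genes, 2 held the AP-2 motif, those of Ptf1a and Gad2, and 0 held the E-box. The first 2 sequences below show where it lies in the factor and the enzyme that define these cells, and the last is that of Epha10, a receptor of the ephrin family higher in amacrine cells, as one of 2 named genes with both motifs. Capitals mark the motifs, which describe letters and not binding.
Ptf1a, chr2:19445413-19445712, plus: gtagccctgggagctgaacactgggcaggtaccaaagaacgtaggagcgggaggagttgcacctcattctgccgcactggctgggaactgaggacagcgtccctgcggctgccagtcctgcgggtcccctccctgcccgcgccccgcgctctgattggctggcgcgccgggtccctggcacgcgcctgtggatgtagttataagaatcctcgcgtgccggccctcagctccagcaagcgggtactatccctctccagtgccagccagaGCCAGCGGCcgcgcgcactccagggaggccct
Gad2, chr2:22622077-22622376, plus: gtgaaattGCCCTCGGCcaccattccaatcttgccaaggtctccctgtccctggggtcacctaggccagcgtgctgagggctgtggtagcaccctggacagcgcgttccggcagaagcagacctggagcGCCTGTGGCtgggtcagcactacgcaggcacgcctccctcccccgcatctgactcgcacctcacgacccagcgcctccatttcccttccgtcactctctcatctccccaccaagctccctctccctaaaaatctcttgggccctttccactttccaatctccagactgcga
Epha10, chr4:124881535-124881834, plus: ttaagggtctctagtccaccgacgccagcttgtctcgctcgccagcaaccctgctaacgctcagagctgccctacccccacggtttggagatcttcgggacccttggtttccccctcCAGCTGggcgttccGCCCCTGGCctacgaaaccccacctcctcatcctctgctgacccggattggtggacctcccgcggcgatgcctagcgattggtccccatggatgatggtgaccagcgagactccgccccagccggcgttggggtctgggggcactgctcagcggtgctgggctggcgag

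Genes that the rule did not use were checked against the label. The 13 other amacrine genes (among them Prdm13, Pax6, Barhl2, Elavl3 and Tfap2c) summed to 2301 CPM in control and 2135 CPM in mutant amacrine cells, and 335 of 347 and 560 of 570 cells had at least 3 of their UMIs. The same list summed to 1550 and 1553 CPM in ganglion cells and to 556 and 541 CPM in neurogenic progenitors, but to 2137 and 2359 CPM in horizontal cells, so it does not set amacrine and horizontal cells apart. Of the horizontal list, Onecut1, Onecut2 and Prox1 helped to choose the horizontal cells, and Onecut3 did not. The levels of the genes that chose these cells are therefore in part set by that choice. Onecut2 was at 911 and 599 CPM in amacrine cells against 2027 and 2023 CPM in horizontal cells. Prox1 was at 99.3 and 75.9 CPM against 304 and 494 CPM. Onecut3 was the sharpest of the 4, at 15.1 and 18 CPM against 195 and 230.4 CPM. At least 3 UMIs of the horizontal list were present in 280 control and 353 mutant amacrine cells, and the members thus include cells with genes shared by both fates. Gad1, the other GABA-making enzyme, had no UMI in control and UMIs in 10 mutant cells, and Chat and Neurod6 had none in either library. Of genes of later subtypes, Calb2 was at 196 and 132 CPM and Ppp1r17 at 25.9 and 19.5 CPM, while Neurod2 and Slc17a8 had no UMI and Th had 1.

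Members with at least 3 UMIs of mesenchymal, pigment, Schwann, epithelial, endothelial, immune or muscle genes numbered 35 (10.1%) in the control and 68 (11.9%) in the mutant. The 6 photoreceptor genes summed to 88.0 and 104 CPM in amacrine cells, mostly Otx2 at 72.5 and 70.9 CPM, with at least 3 UMIs in 20 control and 28 mutant cells, and against 344 and 334 CPM in neurogenic progenitors. The ganglion list summed to 422 and 525 CPM in amacrine cells against 9800 and 9884 CPM in ganglion cells. The doublet caller Scrublet marked 366 control barcodes and 0 mutant barcodes by its own threshold, so it had not worked in the mutant and no doublets were removed from the main values. The shares, the counts of genes called and the genes named between classes or subsets were repeated without the barcodes of highest doublet score. These held 30 control and 49 mutant amacrine cells. The list sums, the genotype ratios within subsets and the values of Isl1-positive cells were not repeated in this way.

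Amacrine cells were then compared with 3 other classes of the same libraries, chosen by their own marker genes. These were 93 control and 101 mutant horizontal cells (Lhx1 with Onecut1, Onecut2 or Prox1), 533 and 615 ganglion cells (Pou4f2 with Pou4f1, Isl1, Rbpms or Sncg) and 1090 and 1680 neurogenic progenitors (Atoh7 with Dll3, Neurog2, Hes6 or Gadd45a). UMIs were summed per class and library and fitted with the edgeR quasi-likelihood test with the library as a block. The p-values measure how well a class difference repeats over 2 libraries of different genotype. All genes that chose a class were left out of the counts. Median depth was 7476 and 7124 UMIs in horizontal cells, 14619 and 15174 in ganglion cells and 10096 and 10050.5 in neurogenic progenitors.

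Against neurogenic progenitors, 3344 of 13172 genes were higher in amacrine cells (25.4%) and 3362 were lower (25.5%). Genes of neuronal maturation were higher, 12 of 13 with a median log2 difference of 1.91, as were 6 of 7 genes of GABA signalling (median 2.32) and 9 of 13 other amacrine genes (median 1.63), of which Ebf3 and Bhlhe22 were lower. The median over all genes was 0.00. Nrxn3, a presynaptic adhesion molecule, was at 273 and 234 CPM in amacrine cells against 2.47 and 1.64 CPM in progenitors, a log2 difference of 6.89. Prdm13, the amacrine repressor, was at 377 and 292 CPM against 15.9 and 15.4 CPM. All 10 progenitor genes were lower (median -1.22), as were all 6 G2/M genes (median -1.85), all 6 S-phase genes and 8 of 9 genes of Notch signalling. Top2a, which untangles DNA in mitosis, was at 218 and 272 CPM against 821 and 782 CPM, so it was lower in amacrine cells but present.

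Against horizontal cells, which also pass through Ptf1a, 1437 genes were higher in amacrine cells (10.9%) and 1232 were lower (9.35%). Here all 10 progenitor genes (median log2 difference 1.64) and all 6 G2/M genes (median 1.36) were higher in amacrine cells, with a median over all genes of 0.04. Sox2, a progenitor factor kept by some amacrine types, was at 103 and 148 CPM against 38.3 and 49.0 CPM. Maturation genes went the other way, 9 of 13 lower and 1 higher with a median of -0.75. Dcx, which binds microtubules in young neurons, was at 52.4 and 69.0 CPM against 496 and 576 CPM, a log2 difference of -3.02. Snap25, part of the vesicle fusion machinery, was at 63.7 and 87.4 CPM against 215 and 328 CPM. Of the 7 GABA genes, 4 were lower in amacrine cells, among them the receptor subunit Gabra2, and Abat, which breaks GABA down, was higher (log2 0.90). Among fate factors, 13 of 26 were higher and 3 lower. Dlx1 was at 126 and 96.0 CPM against 34.3 and 10.6 CPM, and Neurod4, a factor of amacrine fate, at 31.5 and 37.2 CPM against 1.32 and 3.97 CPM.

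Against ganglion cells, 2415 genes were higher (18.3%) and 2806 lower (21.3%), with a median log2 difference over all genes of 0.01. GABA genes were higher in 6 of 7 cases and lower in 1 (median 1.25), and fate factors were higher in 17 of 26 and lower in 4. The other amacrine genes split, with 7 of 13 higher and 4 lower (median 0.87). All 10 progenitor genes were also higher (median 1.11). The 6 ganglion genes that had not chosen the class were all lower (median -4.78), and 8 of 13 maturation genes were lower and 3 higher. Nrxn3 was again far apart, at 5.68 and 6.51 CPM in ganglion cells. Prdm13 was at 0.617 and 1.34 CPM there, a log2 difference of 8.18 in favour of amacrine cells (edgeR adjusted p = 2.75e-13).

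**Figure D2:**
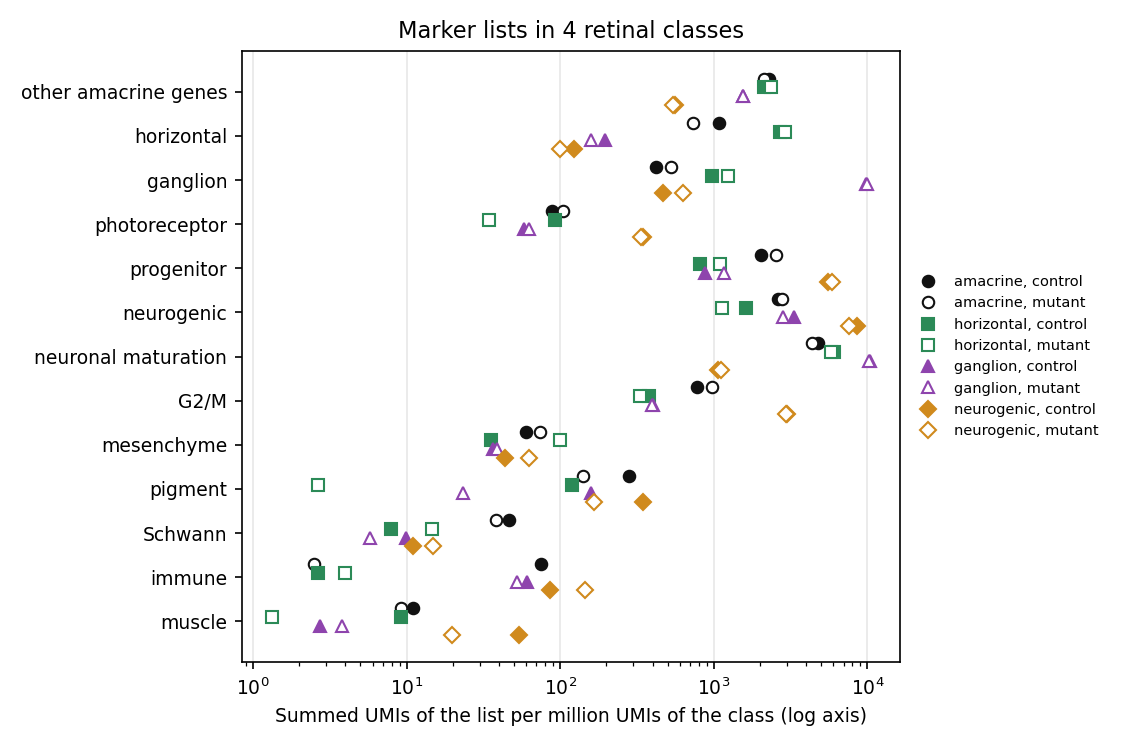
Points give the summed CPM of each marker list (log horizontal axis) in 4 retinal classes, filled for control and open for mutant. The other amacrine genes sit at 2301 and 2135 CPM in amacrine cells, next to horizontal cells, while the horizontal list sits at 1081 and 728 CPM, below the 2682 and 2901 CPM of horizontal cells. Onecut1, Onecut2 and Prox1 of the horizontal list helped to choose the horizontal cells.

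Genes that passed the test in all 3 comparisons were rarer, 170 higher (1.29%) and 32 lower (0.243%) of 13172. The 15 named genes with the largest least difference are led by Chodl, a C-type lectin-like membrane protein, at 107 and 73.4 CPM in amacrine cells against 22.4 and 10.6 CPM in horizontal cells, 7.04 and 4.96 CPM in ganglion cells and 14.1 and 10.5 CPM in neurogenic progenitors. Of the amacrine cells, 30.5% in the control and 24.2% in the mutant carried it, against 0.402% and 0.665% of the haemoglobin-rich cells. Its log2 differences were 2.54 ± 0.21, 3.75 ± 0.13 and 2.77 ± 0.11 (SE), with edgeR adjusted p of at most 3.56e-06. Tfap2c, a further AP-2 factor, was at 29.3 and 25.3 CPM against 9.24 and 1.32 CPM in horizontal cells, 0 and 0.207 CPM in ganglion cells and 4.27 and 3.01 CPM in progenitors. Krt73, a type II keratin, was at 175 and 147 CPM, and at 42.2 CPM or less in every other class. Cldn5, a tight junction protein best known from blood vessels, was at 373 and 257 CPM against 125 and 91.4 CPM in horizontal cells, and was seen in 53.9% and 41.6% of amacrine cells. In the endothelial list, Cdh5, Kdr and Pecam1 summed to 35.6 and 51.2 CPM in amacrine cells, and their part in the Cldn5 level was not tested.

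Cdkn1c, the cell cycle inhibitor p57, was the most abundant of the 15. It stood at 1776 and 1349.9 CPM against 805 and 324 CPM in horizontal cells, 281 and 283 CPM in ganglion cells and 295 and 188 CPM in neurogenic progenitors, with log2 differences of 1.62 ± 0.20, 2.28 ± 0.19 and 2.63 ± 0.19. Cxcl14, a chemokine, was at 60.9 and 52.1 CPM against at most 21.1 CPM elsewhere. Fdx1, a mitochondrial electron carrier, was at 253 and 196 CPM against at most 74.1 CPM, and Slc1a2, a glutamate transporter, at 63.7 and 45.2 CPM against at most 19.3 CPM. The others were Emid1, Ypel2, Kirrel2, Hmga2, Hlf, Slc31a2 and Epha10, between 25.3 and 110.4 CPM in amacrine cells. In both libraries each of the 15 was higher in amacrine cells than in every other class. Of their 14 promoters in RefSeq, for 13 of the 15 genes, 3 held the AP-2 motif and 4 the E-box CAGCTG, or 21.4% and 28.6% beside 16.6% and 16.3% of all promoters. Named genes lower in all 3 comparisons included Nefl, Ly6e, Ogfrl1, Nrcam, Aig1 and Arid3a. Nefl, the light neurofilament chain, was at 28.7 and 40.0 CPM in amacrine cells against 131 and 249 CPM in horizontal cells and 1385 and 1352 CPM in ganglion cells.

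**Figure D3:**
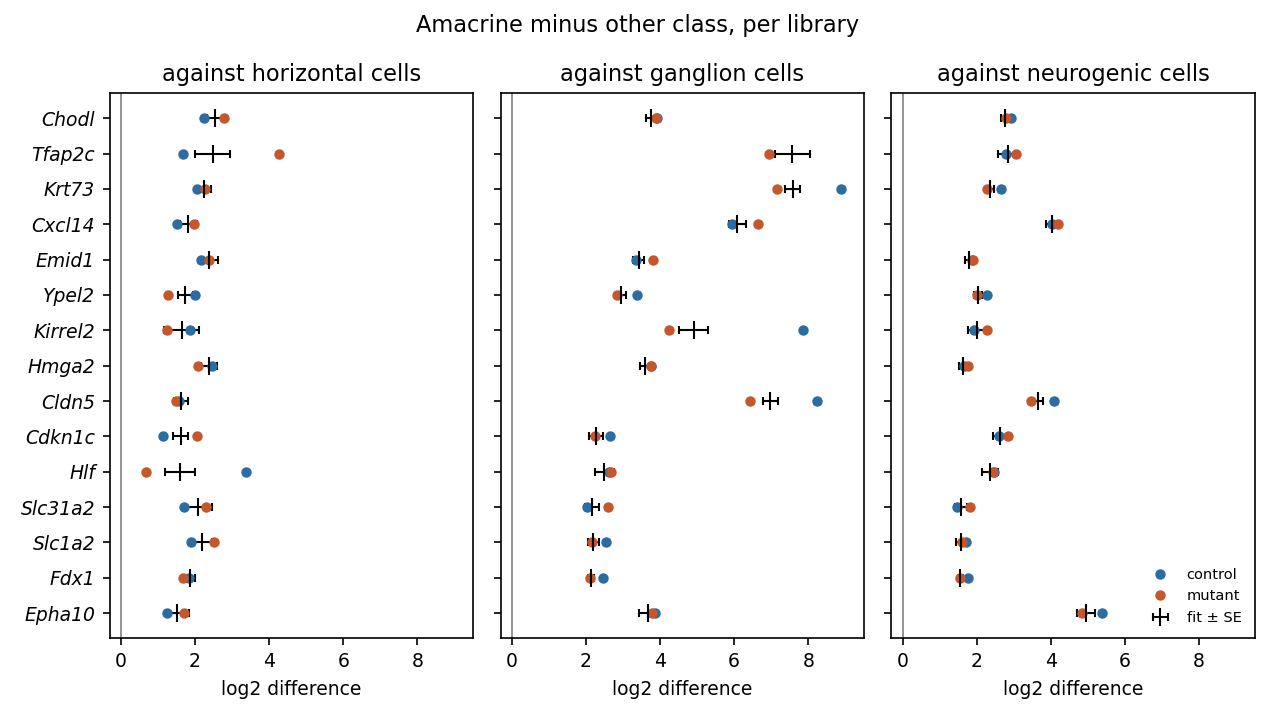
The horizontal axis gives the log2 difference of amacrine cells minus each other class for the 15 named genes, with a coloured point for each library and the edgeR estimate ± SE in black (a library at 0 CPM in the other class has no point). All points lie above 0, and the pairs lie furthest apart for Kirrel2 against ganglion cells, at 7.86 in the control and 4.24 in the mutant, and for Hlf against horizontal cells, at 3.38 and 0.67.

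The members were not all alike. By the rule genes, 297 control and 438 mutant cells carried Ptf1a, 32 and 115 had no Ptf1a but Gad2 or Slc32a1 (Ptf1a-negative GABA cells), and 18 and 17 had only Tfap2a and Tfap2b. The Ptf1a-positive share was 85.6% (81.4% to 89.1%) in the control and 76.8% (73.2% to 80.2%) in the mutant. The Ptf1a-negative GABA share was 9.22% (6.39% to 12.8%) and 20.2% (17.0% to 23.7%), a ratio of 2.19, or 3.60 with at least 3 rule genes required. These shares come from the genes that chose the cells and are a description, added after the data were seen. Median depth was 8056 and 7995 UMIs in Ptf1a-positive cells and 9490 and 8551 UMIs in Ptf1a-negative GABA cells.

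Ptf1a-positive and Ptf1a-negative GABA cells were set against each other in an edgeR quasi-likelihood fit of all 3 subsets in both libraries. Of 8854 genes, 330 were higher in Ptf1a-positive cells (3.73%) and 410 were lower (4.63%), rule genes left out. Prdm13 was at 437 and 379 CPM in Ptf1a-positive and 52.5 and 39.4 CPM in Ptf1a-negative GABA cells, a log2 difference of 3.30. Calb2, the calcium buffer calretinin, was at 229 and 171 CPM against 11.7 and 18.4 CPM. Cdkn1c was at 2051 and 1730.3 CPM against 178 and 255 CPM. Of the amacrine genes 5 of the 9 measured were higher (median 0.79) and none lower, and of the maturation genes 5 of 11 (median 0.76) and none lower. The factors Dlx1, Dlx2, Sox11, Elavl3 and Tfap2c were also higher. Krt73, Fgf18 (a secreted growth factor), Nell1, P2rx1 (an ATP-gated channel), Eomes and St18 led the list. Fgf18 had 98 and 104 UMIs in Ptf1a-positive cells and 0 in Ptf1a-negative GABA cells of either library, and Krt73 554 and 765 UMIs against 1 and 0. The globins Hba-a1, Hba-a2, Hbb-bt and Hbb-bs also ranked there, with 94.3% to 97.9% of their UMIs in the 5 richest cells of each library. Of 9 promoters of the 10 named genes higher in Ptf1a-positive cells, 0 held the AP-2 motif and 1 the E-box.

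Cell cycle and progenitor genes ran the other way. All 6 G2/M genes (median log2 difference -1.94), 5 of 6 S-phase genes (-1.27) and 9 of 10 progenitor genes (-1.30) were lower in Ptf1a-positive cells, against a median over all genes of 0.00. At least 3 UMIs of the G2/M list were found in 14.1% and 13.7% of Ptf1a-positive cells and in 56.3% and 35.7% of Ptf1a-negative GABA cells. Neurog2, a proneural factor, was at 108 and 116 CPM against 679 and 590.5 CPM. Foxn4, upstream of Ptf1a, was at 8.56 and 14.9 CPM against 78.7 and 60.5 CPM. Dll4, a Notch ligand that Foxn4 is known to switch on, was at 3.72 and 3.86 CPM against 55.4 and 28.0 CPM. Olig2, Depdc1a, Nek2, Bmpr1b, Sstr2, Ncapg and the long non-coding RNA Gm32647 were lower as well. The control side rests on 32 cells, and there the 5 richest cells held 61.8% to 100% of the UMIs of these 10 genes, 96.1% for Neurog2. The counts of 330 and 410 calls were 100 and 52 under DESeq2 and 695 and 809 with only the groups compared in the fit.

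**Figure D4:**
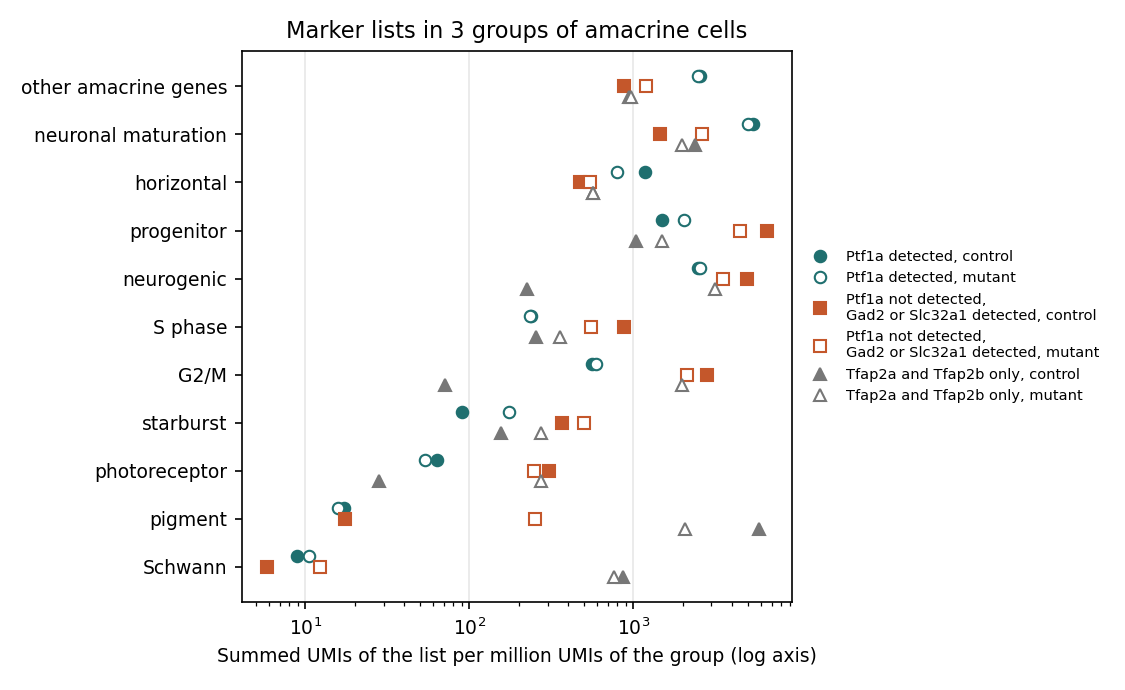
Points give the summed CPM of each list (log horizontal axis) in 3 groups of amacrine cells, filled for control and open for mutant. Ptf1a-positive cells are highest in the amacrine and maturation lists, Ptf1a-negative GABA cells in the progenitor, S-phase and G2/M lists, and cells with AP-2 factors only in the pigment and Schwann lists, at 5879 and 862 CPM in the control.

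The 35 cells with only AP-2 factors stood apart in other genes. Their pigment list summed to 5879 and 2058 CPM, against 15.9 to 251 CPM in the other subsets, and their Schwann list to 862 and 760 CPM against 5.83 to 12.3 CPM. Dct, a melanin enzyme, was at 2933 and 949.7 CPM and Sox10, a neural crest factor, at 233 and 132 CPM. At least 3 UMIs of either list were found in 6 of 18 control and 4 of 17 mutant cells. Tfap2a and Tfap2b are used by neural crest and surface ectoderm as well as by amacrine cells, and these cells were 5.19% and 2.98% of the members.

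Amacrine cells were 3.57% (3.21% to 3.96%) of the cells kept in the control and 5.32% (4.91% to 5.77%) in the mutant, a ratio of 1.49 (1.30 to 1.71). Over the 4 retinal classes alone they were 16.8% (15.2% to 18.5%) of 2063 and 19.2% (17.8% to 20.7%) of 2966 cells, a ratio of 1.14 (0.998 to 1.31). Over all cells, neurogenic progenitors had a ratio of 1.40 (1.30 to 1.51), ganglion cells 1.05 and horizontal cells 0.986. With cells that had a Xist UMI and no Y-linked UMI only, the ratios of the amacrine share were 1.25 (1.03 to 1.52) over all cells and 0.995 (0.816 to 1.21) over the retinal classes.

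Within amacrine cells most genes were close between the genotypes. Past 2-fold with an interval that excludes 1 were 60 genes higher in the mutant (0.611% of 9813) and 48 lower (0.489%). The balance turned to 29 higher and 77 lower of 8197 genes when only cells with a Xist UMI and no Y-linked UMI were used. Y-linked UMIs were present in 0 of 347 control and 56.0% of mutant amacrine cells, and their part in the counts was not tested beyond this. Prdm13 was at 377 CPM in control and 292 CPM in mutant cells, a ratio of 0.774 (0.718 to 0.836). Pax6, the eye field factor kept in amacrine cells, had a ratio of 0.990 (0.95 to 1.03), and Barhl2, a homeodomain factor of amacrine subtypes, 1.04 (0.897 to 1.2). Cdkn1c had a ratio of 0.760 (0.734 to 0.787) and Calb2 0.673 (0.603 to 0.751). Within Ptf1a-positive cells Prdm13 was at 0.865 (0.801 to 0.935), Cdkn1c at 0.844 (0.814 to 0.875) and Calb2 at 0.747 (0.668 to 0.835). Within Ptf1a-negative GABA cells they were at 0.752 (0.427 to 1.38), 1.43 (1.09 to 1.92) and 1.58 (0.533 to 6.32). The horizontal genes Onecut1, Onecut2 and Prox1 were lower, at ratios of 0.632 (0.511 to 0.781), 0.658 (0.625 to 0.692) and 0.764 (0.657 to 0.888), and Onecut3 was at 1.19 (0.832 to 1.72). In Ptf1a-positive cells the first 3 were at 0.482 (0.375 to 0.618), 0.663 (0.628 to 0.700) and 0.768 (0.651 to 0.907). In Ptf1a-negative GABA cells they were at 1.37 (0.763 to 2.65), 1.09 (0.886 to 1.34) and 1.29 (0.762 to 2.28), each with an interval that includes 1.

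Progenitor genes leaned towards the mutant, and their summed level did so in the other classes as well. The list was at 2023 CPM in control and 2547 CPM in mutant amacrine cells. It was at 816 and 1104 CPM in horizontal, 883 and 1157 CPM in ganglion and 5568 and 5844 CPM in neurogenic cells. In amacrine cells the interval lay above a ratio of 1 in 8 of 10 progenitor genes (median log2 ratio 0.36) and in 5 of 6 G2/M genes (0.32). Of all 11537 genes with at least 20 UMIs, 6.49% lay above and 8.11% below, with a median of -0.02. Hes5, a Notch target, was at 267 CPM in control and 389 CPM in mutant cells, a ratio of 1.45 (1.34 to 1.58). Fgf15, a growth factor of retinal progenitors, had a ratio of 1.41 (1.30 to 1.53), Sox2 1.43 (1.26 to 1.63) and Top2a 1.25 (1.14 to 1.37). None of these genes was past 2-fold. Within the subsets the values differed. In Ptf1a-positive cells the interval lay above 1 in 8 of 10 progenitor genes but in 0 of 6 G2/M genes, with Top2a at 1.09 (0.961 to 1.24). Of 8001 genes with at least 20 UMIs in both subsets, 6.07% lay above 1 there and 7.7% below. In Ptf1a-negative GABA cells 0 were above 1 in either list, and 7 of 10 and 5 of 6 lay below it, with Top2a at 0.728 (0.634 to 0.836), against 6.12% of all genes above and 7.77% below. The part of the subset shares in the pooled ratios was not tested.

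Genes of starburst cells, the cholinergic amacrine type that mediates direction selectivity, were looked at one by one. Of the 8 in the list, 4 reached 20 UMIs over both libraries, Fezf1 and Megf10 through the mutant alone, so no count or median over them is given. Isl1 (chr13:116298281-116309689, minus strand), which marks starburst and ganglion cells, had 52 UMIs in 22 control cells (6.34%) and 467 UMIs in 75 mutant cells (13.2%), or 16.4 and 89.5 CPM. The ratio was 5.46 (4.09 to 7.41). Fezf1, a starburst factor, had no UMI in the control and 23 UMIs in 8 mutant cells, a ratio of 4.66 with the control set at 3 UMIs over the library, and the exact counting interval for 0 control UMIs begins at 3.49. Megf10, a starburst surface receptor, had 9 and 33 UMIs, a ratio of 2.23 (1.04 to 5.29). Sox2, which starburst cells keep, had 327 and 770 UMIs. Chat had no UMI in either library, and the cholinergic transporters Slc18a3 and Slc5a7 had 1 UMI each in the mutant.

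Isl1 UMIs were found in 2.01% and 2.88% of haemoglobin-rich cells, and in 2.59% and 7.72% of amacrine cells thinned to 2000 UMIs each. The log2 ratio of its level was 1.62 after thinning and 2.45 before. In neurogenic progenitors of the same libraries its log2 ratio was 0.18, and in ganglion cells, which Isl1 helped to choose, -0.05. Isl1 UMIs were present in 4.71% and 9.36% of Ptf1a-positive and in 18.8% and 26.1% of Ptf1a-negative GABA cells, with ratios of the levels of 5.30 (3.61 to 8.03) and 6.61 (3.53 to 14.0). All 23 Fezf1 UMIs lay in mutant cells with Isl1. Megf10 was at 0 and 21.8 CPM in Isl1-positive and 3.04 and 3.79 CPM in Isl1-negative amacrine cells, and Sox2 at 112 and 329 CPM against 102 and 118 CPM. With Isl1 left out, at least 3 UMIs of the ganglion list were found in 15 of 22 control and 42 of 75 mutant Isl1-positive cells, and in 144 of 325 and 195 of 495 Isl1-negative cells. The levels of single ganglion genes in control and mutant Isl1-positive cells went both ways. Nefl, a neurofilament, was at 42.1 and 187 CPM, Nefm at 103 and 185 CPM, Sncg at 84.1 and 192 CPM and Gap43, a growth cone protein, at 341 and 443 CPM. The ganglion factor Pou4f1 was at 56.1 and 16.4 CPM and Rbpms at 74.8 and 58.6 CPM. The control values rest on 12 Pou4f1 UMIs in 2 cells, 16 Rbpms UMIs in 5, 9 Nefl UMIs in 3 and 18 Sncg UMIs in 3. Pou4f1 was present in 9.09% of control and 12% of mutant Isl1-positive cells. Each gene was higher than in Isl1-negative cells of the same library, where Nefl was at 27.7 and 16.0 CPM and Nefm at 52.1 and 33.7 CPM. Sncg was at 5.07 and 11.1 CPM there, Gap43 at 111 and 91.8 CPM, Pou4f1 at 2.37 and 3.34 CPM and Rbpms at 22.3 and 16.7 CPM. Over all amacrine cells the interval lay above a ratio of 1 in 3 of the 9 measured genes of the list, Isl1 included, and below it in 1 (median log2 ratio 0.16). Of all genes with at least 20 UMIs, 6.49% lay above and 8.11% below. Median depth was 8558 and 8636 UMIs in Isl1-positive cells. The 5 richest cells held 59.6% of the control Isl1 UMIs and 29.3% of the mutant ones.

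Other genes far towards the mutant rested on fewer cells. Islr2, a neuronal membrane protein of growing axons, had 17 and 164 UMIs, a ratio of 5.86 (3.55 to 10.3). Thrb, the thyroid hormone receptor of cones, had 6 and 50 UMIs. Sncg, a synuclein of ganglion cells, had a ratio of 3.52 (2.42 to 5.26), but 73.3% of its mutant UMIs lay in 5 cells and the log2 ratio was 0.02 with at least 3 rule genes required. Hba-x, the peptide gene Sst and the muscle gene Des had at least 99.1% of their mutant UMIs in 5 cells. The 8 genes furthest towards the control, BC100530, Krt15, Pf4, Mrc1, C1qa, C1qc, C1qb and Tyrobp, include 6 of macrophages or platelets and had 96.6% to 100% of their control UMIs in 5 cells. Without the 5 richest cells of each library per gene, the counts past 2-fold were 97 higher and 13 lower, and with 20 UMIs as the minimum 132 and 125.

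**Figure D5:**
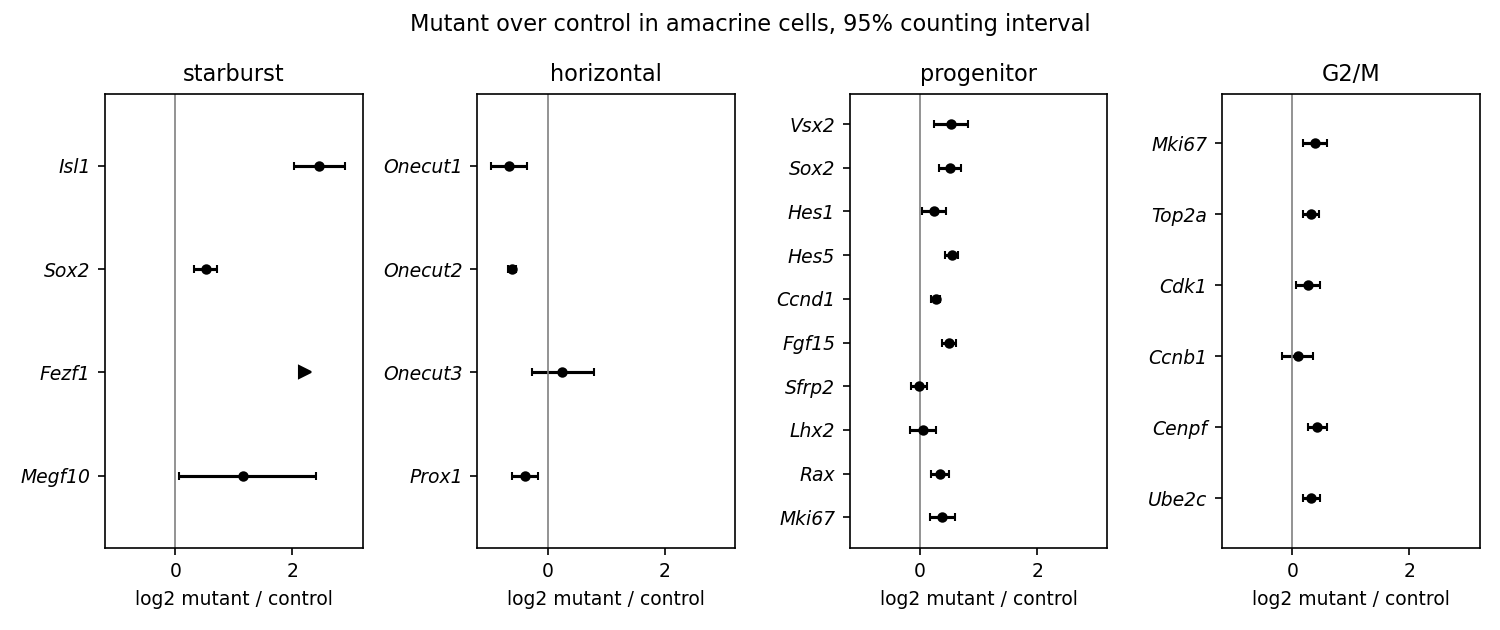
Points give the log2 ratio of mutant over control (horizontal axis) in amacrine cells with 95% counting intervals for the measured genes of 4 lists, and the triangle marks Fezf1 with its 0 control UMIs set at 3. Isl1 lies furthest to the right at 2.45, and Onecut1, Onecut2 and Prox1 lie left of 0.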

How the data were processed

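Counts were the UMI matrices deposited by the authors, 1 per library, raw and not normalized. The submitters' notes name Cell Ranger 7.1.0, Seurat 4.1.1 and the mm10 genome, and the roles of these tools were taken from the study's methods. UMIs count 3′ tags and do not scale with transcript length. Barcodes with fewer than 200 genes, fewer than 2000 UMIs or over 15% mitochondrial UMIs were left out. The study's own filters removed cells above a count limit at the depth where this rule starts, so the cells differ from those it analysed. Members, classes and gene lists were chosen with earlier results of these data known. UMIs were summed per class and library and tested with edgeR 4.0.16 (quasi-likelihood, TMM, filterByExpr, Benjamini-Hochberg, called at an adjusted p of 0.05) with the library as a block, on 8 sums with 3 residual degrees of freedom for classes and 6 sums with 2 for subsets. Scripts were tested on simulated data. Between genotypes, CPM carry exact Poisson, shares Clopper-Pearson and ratios conditional binomial 95% intervals (scipy 1.17.1), without a test. Ratios between genotypes needed 50 UMIs of a gene in the 2 libraries together, or 20 for the lists. Genes were named by rank: the 15 highest and 8 lowest by their least difference over 3 classes, 10 each way between subsets and 8 each way between genotypes, at 20 CPM or more in the higher class or subset, and some genes these rules pick are not reported here. Alternatives included DESeq2 1.42.0, RLE factors, no low-count filter, thinning to 2000 UMIs and other cell filters.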

Additional observations from a re-analysis of the deposited data

Results flagged for a closer look

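Y-linked UMIs, a readout outside the comparisons, were present in 56.0% (51.8% to 60.1%) of mutant amacrine cells and in 0 of 347 control amacrine cells. Xist UMIs were found in 96.8% of control and 32.5% of mutant amacrine cells, and 35 mutant cells held both. The other mutant classes had Y-linked UMIs in 49.8% to 58.7% of their cells.

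For 17 of 111 list genes measured in both subsets (15.3%, rule genes left out), the mutant-over-control ratio lay on opposite sides of 1 in Ptf1a-positive and Ptf1a-negative GABA cells, with counting intervals that exclude 1 in both. Over all 8001 genes measured in both, 119 did so (1.49%). A counting interval excludes 1 more readily at high counts, and the list genes were not matched in level to all genes. The difference between the subsets was not tested. The control side of the Ptf1a-negative GABA cells rests on 32 cells, of which the 5 richest held 47.0% to 89.2% of the UMIs of these genes. Some were higher in mutant Ptf1a-positive cells and lower in mutant Ptf1a-negative GABA cells, with ratios of 1.08 and 0.668 for Atoh7, 1.33 and 0.639 for Ccnd1, and 1.68 and 0.675 for Fgf15. Hes1 had 1.24 and 0.720, Mcm2, alone among the 12 S-phase and G2/M genes, 1.47 and 0.505, Rax 1.28 and 0.803, and Sfrp2 1.25 and 0.426. Kdr had 2.19 and 0.510, and the globin Hbb-bt 1.14 and 0.567. Others ran the other way, with 0.844 and 1.43 for Cdkn1c, 0.886 and 1.96 for Elavl3, 0.895 and 1.70 for Nhlh2, and 0.822 and 1.66 for Nrxn3. Sox4 had 0.861 and 1.67, Stmn2 0.871 and 2.23, and Tubb3 0.964 and 1.69.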

How the results depend on the processing

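The alternative without cells called by Scrublet was not run, since its threshold marked 0 mutant barcodes. Removing the highest Scrublet scores took its place, chosen after seeing the data, as was the Ptf1a-negative GABA share as a result. With Xist-positive cells without Y-linked UMIs only, the share ratio over all cells was 1.25 and that over the retinal classes, 1.14 in the main values, was 0.995. The Ptf1a-negative GABA share ratio of 2.19 was 3.60 with at least 3 rule genes. The genotype counts of 60 higher and 48 lower were 29 and 77 in those Xist-positive cells, 29 and 23 after thinning, 132 and 125 with 20 UMIs as the minimum, and 97 and 13 without the 5 richest cells. The lower count was 28 without the highest Scrublet scores and 20 without members carrying non-retinal markers. Thinning left 573 higher and 430 lower calls against horizontal cells, 956 and 1250 against ganglion cells and 2201 higher against neurogenic progenitors. Between the subsets it left 80 and 90 of 330 and 410, DESeq2 gave 100 and 52, the fit with only the groups compared 695 and 809, and the fit without a low-count filter 521 higher. Thinning leaves fewer counts per gene. The cause of the other changes was not tested. For single genes between classes or subsets, 670 of 696 repeats kept direction and call and 26 lost the call, among them Kirrel2 against horizontal cells under DESeq2. Between the libraries 62 of 78 repeats stayed within the counting interval and 16 moved, with Isl1 between log2 1.62 and 3.27. No paired analysis was possible because each genotype has 1 library. Leaving out a library leaves no residual degrees of freedom, so the differences per library stand in its place.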

Other observations

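Genes of glycine signalling were low in the amacrine cells. Slc6a9, the glycine transporter of glycinergic cells, was at 2.52 CPM (control) and 3.83 CPM (mutant), and Slc6a5 at 2.52 and 1.92 CPM. Glra2, a glycine receptor subunit, was at 3.47 and 4.98 CPM, and Glrb, its partner, at 1.58 and 1.53 CPM. Of these 4 genes, 3 were higher than in neurogenic progenitors (25.4% of all genes), 2 higher than in ganglion cells (18.3% of all genes) and 1 lower than in horizontal cells (9.35% of all genes) by edgeR. Neuropeptide genes were rare too, with no UMI of Vip or Crh in either library and 5.36 and 2.87 CPM of Cck. Penk, which encodes enkephalins, was at 13.9 and 23.0 CPM against 111 and 115 CPM in neurogenic progenitors.

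Of the immediate-early and heat shock genes that dissociation can induce, 3 of 9 were lower in amacrine than in horizontal cells (9.35% of all genes) and 0 higher (10.9%). Against ganglion cells 2 were lower (21.3%) and 0 higher, and against neurogenic progenitors 2 were higher (25.4%) and 0 lower. Between the genotypes 0 of 6 had an interval above a ratio of 1 (6.49% of all genes) and 1 had one below (8.11%), Egr1 at 0.429 (0.187 to 0.953), which was named after its values were seen.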
